A study of Mus musculus with 46 samples.

Results

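The genes described here are 10 nuclear genes for mitochondrial respiration and protein import: Ndufb6 and Ndufa5 (accessory subunits of complex I), Ndufaf4 and Ndufaf6 (factors that help to assemble complex I and are not part of the finished enzyme), Cox6c (a subunit of cytochrome c oxidase), Coq3 (a methyltransferase that makes coenzyme Q), Tomm5 (a small subunit of the TOM pore), Stoml2 (a scaffold protein of the inner membrane), Mrpl50 (a protein of the large subunit of the mitochondrial ribosome) and Slc25a51 (the carrier that brings NAD into mitochondria). They were chosen by name among the genes of 3 chromosome segments in which the levels in the count table followed the gene names, with the condition that a gene averaged at least 5 CPM, that is, normalized counts per 1000000. All 10 met it and all 10 passed the filter on low counts. They are 10 of 1209 rows of these segments, of 55416 rows of the table and of 8986 rows that were tested.

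Mitochondria make most of a cell's ATP with a chain of protein complexes in their inner membrane. Complex I takes electrons from NADH, the lipid coenzyme Q carries them onward, and complex IV, cytochrome c oxidase, hands them to oxygen. Most proteins of the organelle are encoded in the nucleus, made in the cytosol and brought in through the TOM pore of the outer membrane, while a few core subunits are made inside by the mitochondrial ribosome.

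The cells were mouse embryonic fibroblasts (MEFs), and each library held RNA of a whole dish. In the first group were 12 libraries of ATF4 KO cells with borrelidin (600 nM, 7 h), in the second 11 of ATF4 KO cells with vehicle, in the third 12 of wild type cells with borrelidin and in the fourth 11 of wild type cells with vehicle, which was the solvent DMSO alone. Borrelidin blocks threonyl-tRNA synthetase, the enzyme that loads threonine onto its tRNA, and uncharged tRNA is a signal that raises translation of ATF4, a transcription factor of the amino acid response. The wild type line was purchased and the ATF4 KO line was made in the laboratory with CRISPR/Cas9 and cell sorting. Libraries of a line are therefore not independent knockouts, the p-values measure the spread between libraries, and loss of ATF4 and other differences between the lines cannot be told apart. In RNA from whole dishes, fewer cells of a type and less RNA per cell cannot be told apart either.

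Each library held between 2047362 and 3467765 counts assigned to genes. On the second principal component of the 500 most variable rows (21.9% of their variance), 14 libraries were set apart from the rest of their group by a gap of over 50% of the group's range. These were replicates 1 to 3 of ATF4 KO with borrelidin, replicates 1 to 3 of ATF4 KO with vehicle and replicates 1 to 8 of wild type with vehicle, and wild type with borrelidin had none. The borrelidin comparison in wild type therefore set 12 libraries that were not set apart against a group with 8 that were. In each group the libraries set apart lay on the side of the gap away from wild type with borrelidin. The paper reports that its own second component separated samples by drug treatment. Leaving out the 14 thus removes the wild type vehicle libraries farthest from borrelidin. This can by itself shrink the wild type response, so it is not an independent check of comparisons that use this group. Each count of members called is given over all 46 libraries and over the 32 that remain without these 14. Outside the segments the levels did not follow the gene names (r = 0.14 over 1773 genes, against 0.97 over 36 genes inside, both with the mean level in the study's own table), and none of the 10 genes was among those compared. Atf4 itself has its row elsewhere in the table and was not analysed here, so the knockout was not checked. The fibroblast markers in the segments were led by Flnc, an actin crosslinking protein, at 2490 CPM, while Reck averaged 39.5 CPM and the collagen gene Col15a1 0.973 CPM, with 0 counts in 8 libraries. Of the markers of other cells, Slc45a2 of melanocytes was at 0 in 44 libraries, Tfec of macrophages in 43 and Il7r of lymphoid cells in 41, while Cd72 of the lymphoid list averaged 92.8 CPM and Cntfr of the neural list 38.7 CPM. The macrophage list, almost wholly Irf5 (a transcription factor of the interferon response, 403 CPM), summed to 663 CPM in ATF4 KO with borrelidin (395 to 1090) and to 298 CPM in wild type with borrelidin (244 to 375). The lymphoid list summed to 124 CPM in ATF4 KO with borrelidin (88.4 to 145) and to 88.4 CPM in wild type with borrelidin (70.8 to 151), and the neural list to 57.5 CPM (40.5 to 66.2) and 37 CPM (23.8 to 48.7) in the same groups. The part of these lists in the results below was not tested.

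The start regions of 4 members are shown because under borrelidin these genes had lower levels in ATF4 KO, as described further down. Promoter sequences of RefSeq (build GRCm38.p6, 250 bases before to 50 after the start of transcription) matched 7 of the 10 genes by symbol, and Cox6c, Ndufaf6 and Slc25a51 had no entry. Each sequence is written 5′ to 3′ on the strand of the gene. Capitals mark letters found on either strand for 2 motifs: GCGCA followed by any 1 base and then GCGC, bound by NRF1, a regulator of many nuclear genes for respiratory proteins, and TGACG, the core letters of the cAMP response element, which proteins of the ATF and CREB families bind. The Tomm5 window is chr4:45108064-45108363 (minus strand), that of Mrpl50 chr4:49521034-49521333 (minus strand), that of Ndufa5 chr6:24527641-24527940 (minus strand, the more upstream of its 2 entries) and that of Ndufaf4 chr4:24897833-24898132 (plus strand).
Tomm5: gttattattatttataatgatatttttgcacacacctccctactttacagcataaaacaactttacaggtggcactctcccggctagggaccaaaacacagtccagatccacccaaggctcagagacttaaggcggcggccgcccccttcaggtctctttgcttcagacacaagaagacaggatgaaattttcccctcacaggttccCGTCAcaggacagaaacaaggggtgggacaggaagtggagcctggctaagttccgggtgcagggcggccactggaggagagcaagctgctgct
Mrpl50: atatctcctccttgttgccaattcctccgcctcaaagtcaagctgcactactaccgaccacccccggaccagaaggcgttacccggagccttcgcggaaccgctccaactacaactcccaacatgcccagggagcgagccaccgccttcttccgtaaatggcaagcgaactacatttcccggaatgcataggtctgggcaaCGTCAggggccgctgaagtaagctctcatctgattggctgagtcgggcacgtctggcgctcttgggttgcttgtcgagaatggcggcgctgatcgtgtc
Ndufa5: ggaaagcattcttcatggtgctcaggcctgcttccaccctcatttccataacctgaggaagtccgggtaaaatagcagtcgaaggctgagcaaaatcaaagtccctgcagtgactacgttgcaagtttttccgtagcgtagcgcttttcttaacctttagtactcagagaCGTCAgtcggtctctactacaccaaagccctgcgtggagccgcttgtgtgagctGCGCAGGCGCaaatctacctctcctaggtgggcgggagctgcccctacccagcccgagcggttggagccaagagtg
Ndufaf4: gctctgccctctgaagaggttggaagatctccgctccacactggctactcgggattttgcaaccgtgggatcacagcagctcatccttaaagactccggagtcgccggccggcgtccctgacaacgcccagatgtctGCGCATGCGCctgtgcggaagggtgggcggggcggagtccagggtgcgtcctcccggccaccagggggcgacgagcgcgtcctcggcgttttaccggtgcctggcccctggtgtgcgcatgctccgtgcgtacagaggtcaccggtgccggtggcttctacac

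The NRF1 letters stood in 3 of the 7 genes with an entry, against 5.19% of the 27025 genes with a window of this length (4.6% of 32851 windows, since a gene can have several). In Ndufaf4 the match began 113 bases before the start of transcription and read the same on both strands, in Ndufa5 it began 26 bases before it, and in Coq3 it began at the first transcribed base of its second entry. The cAMP response core stood in 5 of the 7 (Tomm5, Mrpl50, Ndufa5, Ndufb6 and Stoml2), against 23% of genes and 20.8% of windows. TGATGNAA, the amino acid response element to which ATF4 binds with a C/EBP partner, had no match in these windows, and 4.51% of genes and 3.97% of windows held it. No matched letters of the 3 motifs overlapped in the 7 genes. These are matches of letters in short windows and not measured binding sites.

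The 10 genes lie at chr4:40270591-40279421 (Ndufb6, minus strand), chr6:24518666-24528013 (Ndufa5, minus), chr4:24898083-24905001 (Ndufaf4, plus), chr4:11051045-11076205 (Ndufaf6, minus), chr15:35925886-35938246 (Cox6c, minus), chr4:21879673-21912162 (Coq3, plus), chr4:45105208-45108114 (Tomm5, minus), chr4:43027690-43031710 (Stoml2, minus), chr4:49512596-49521093 (Mrpl50, minus) and chr4:45395923-45408766 (Slc25a51, minus) of GRCm38, in the GENCODE M21 annotation. Exons of 4 of them share bases with another gene: 39.0% of the exon bases of Ndufb6 (with Smim27), 16.6% of Stoml2 (with Gm26643), 7.0% of Cox6c (with Vps13b) and 2.3% of Slc25a51 (with Gm25692). Whether strand was used in counting is not given in the sources used here, so reads of these shared bases cannot be assigned with certainty. Levels of different genes are compared per kilobase of annotated exon. On this scale Ndufb6 and Tomm5 were highest, each at 231 CPM per kilobase over the 46 libraries, followed by Stoml2 (150) and Ndufa5 (125), then Mrpl50 (85) and Cox6c (76.2). Ndufaf6 and Ndufaf4 (33.8 each) and Coq3 (28.3) were lowest together with Slc25a51. Per kilobase the structural subunits of complex I thus stood above its assembly factors. This order depends on annotated exon length, since in CPM Ndufaf4 (132) averaged above Ndufa5 (129). The range of single libraries was also wide, from 54.1 to 297 CPM for Ndufb6 and from 36.9 to 497 CPM for Tomm5.

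**Figure D1:**
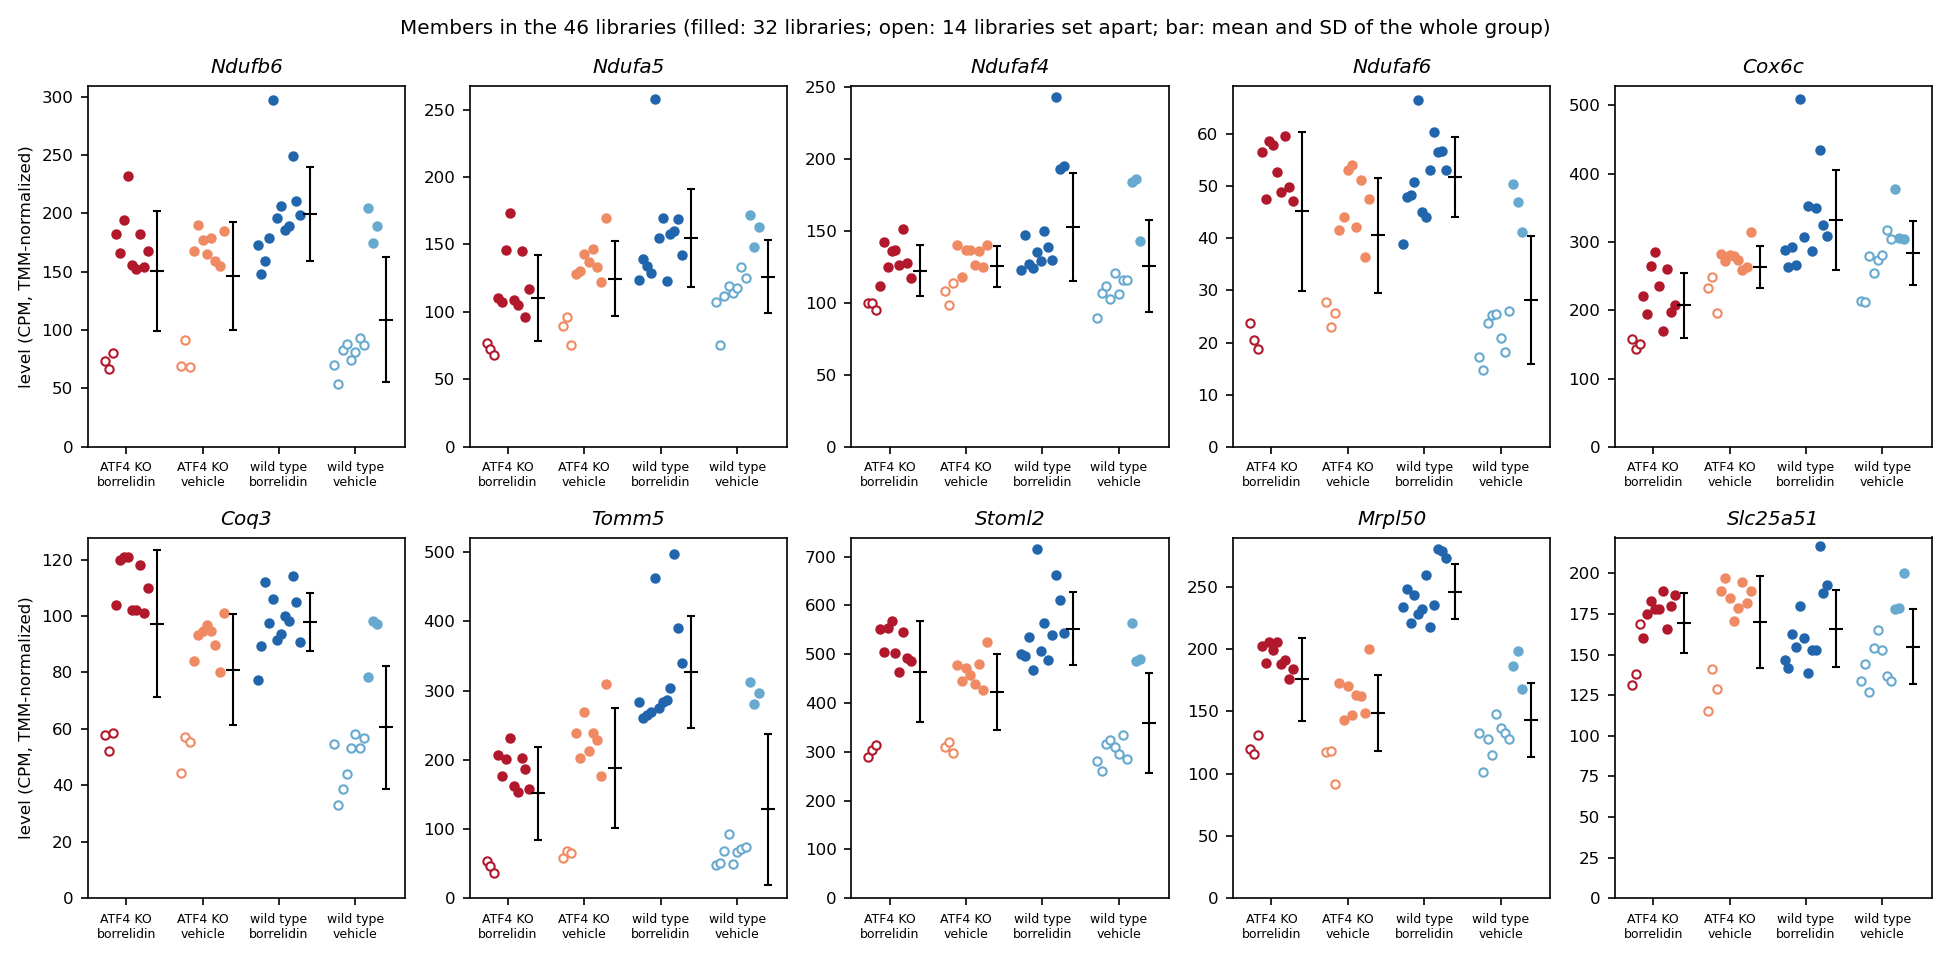
Levels of the 10 genes in CPM (TMM-normalized counts per 1000000) in each of the 46 libraries by group, with the mean and SD of the whole group as a bar beside the points. Open circles are the 14 libraries set apart, whose mean is below that of the other libraries of their group in every panel, and for Tomm5 and Mrpl50 all 12 libraries of ATF4 KO with borrelidin lie below all 12 of wild type with borrelidin. The share of all tested rows that do so is not given.

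Among cells given borrelidin, ATF4 KO had less Tomm5, Cox6c, Mrpl50, Ndufa5 and Ndufaf4 transcript than wild type, and no member was called higher. These 5 of 10 compare with 24.1% of the 8986 tested rows that were called lower and 25.7% called higher in this comparison, where a call is a Benjamini-Hochberg adjusted p under 0.05 in edgeR's quasi-likelihood test. Of the tested protein-coding genes of the segments, 30.5% were called lower and 25.3% higher. The median log2 fold change was -0.36 over the members, -0.04 over the 292 tested protein-coding genes of the segments and 0.04 over all tested rows. In the 32 libraries that were not set apart the same 5 genes were called lower (27.2% of 8890 rows) and Coq3 was called higher (27.1% of rows), with a median of -0.20 over the members.

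Tomm5, of the import pore, had the largest fold change of the members in this comparison. It ranged from 36.9 to 232 CPM (median 169) in ATF4 KO with borrelidin, against 260 to 497 CPM (median 286) in wild type with borrelidin, so the groups did not overlap. The share of all tested rows without overlap in this comparison is not given, so this describes Tomm5 and does not set it apart from other genes. The means were 151 ± 67.7 CPM in ATF4 KO and 326 ± 80.9 CPM in wild type (SD, n = 12 each), a log2 fold change of -1.11 (standard error 0.31, edgeR adjusted p = 0.003). Without the 14 libraries the ATF4 KO group with borrelidin kept 9 libraries between 154 and 232 CPM, still below all wild type libraries with borrelidin, and the log2 fold change was -0.80 (standard error 0.11, edgeR adjusted p = 4.6e-08). Under vehicle Tomm5 ranged from 58.4 to 309 CPM (median 213) in ATF4 KO and from 48.5 to 313 CPM (median 70.8) in wild type. Here the ranges overlapped almost fully, and the log2 fold change of 0.56 (edgeR adjusted p = 0.18) turned to -0.34 (edgeR adjusted p = 0.13) without the 14 libraries. With the 2 wild type borrelidin libraries of fewest counts also left out, Tomm5 was called lower under vehicle (-0.35, edgeR adjusted p = 0.024). With the replicate number as a block over all 46 libraries it was called higher (0.69, edgeR adjusted p = 0.028).

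Cox6c, of cytochrome c oxidase, ranged from 143 to 285 CPM (median 203) in ATF4 KO with borrelidin, against 264 to 510 CPM (median 308) in wild type with borrelidin. Only 2 of the 12 ATF4 KO libraries reached into the wild type range. The means were 207 ± 47.4 CPM in ATF4 KO and 332 ± 73 CPM in wild type (SD, n = 12 each), a log2 fold change of -0.68 (standard error 0.11, edgeR adjusted p = 7.8e-07), and -0.55 without the 14 libraries (edgeR adjusted p = 5.4e-06). Under vehicle its means were 264 ± 30.6 CPM in ATF4 KO and 284 ± 47.2 CPM in wild type (SD, n = 11 each), with a log2 fold change of -0.11 (95% interval -0.33 to 0.12). It was -0.24 without the 14 libraries (edgeR adjusted p = 0.24), and -0.29 with a block for the library set, where it was called lower (edgeR adjusted p = 0.015). Cox6c was also the only member that borrelidin lowered in ATF4 KO over all 46 libraries, with a log2 fold change of -0.35 (standard error 0.11, edgeR adjusted p = 0.012), and -0.30 without the 14 libraries (edgeR adjusted p = 0.019).

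Mrpl50, of the mitochondrial ribosome, ranged from 116 to 206 CPM (median 188) in ATF4 KO with borrelidin, against 218 to 280 CPM (median 239) in wild type with borrelidin. These groups did not overlap, though here too the share of all tested rows without overlap is not given. The means were 176 ± 33.5 CPM in ATF4 KO and 246 ± 22.1 CPM in wild type (SD, n = 12 each). The log2 fold change was -0.49 (standard error 0.11, edgeR adjusted p = 1.5e-04), and -0.35 without the 14 libraries (edgeR adjusted p = 3.3e-06). With vehicle it ranged from 91.4 to 200 CPM (median 149) in ATF4 KO and from 101 to 198 CPM (median 133) in wild type, which overlapped, with a log2 fold change of 0.05 (95% interval -0.17 to 0.28). This value turned to -0.17 without the 14 libraries (edgeR adjusted p = 0.18), and to -0.22 with a block for the library set, where it was called lower (edgeR adjusted p = 0.0061).

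Ndufa5, of complex I, ranged from 67.9 to 173 CPM (median 108) in ATF4 KO with borrelidin, against 123 to 258 CPM (median 149) in wild type with borrelidin, and 3 ATF4 KO libraries reached into the wild type range. The log2 fold change was -0.49 (standard error 0.14, edgeR adjusted p = 0.0026), and -0.32 without the 14 libraries (edgeR adjusted p = 0.0078). Ndufaf4, an assembly factor of complex I, ranged from 95 to 151 CPM (median 126) in ATF4 KO with borrelidin, against 123 to 243 CPM (median 137) in wild type with borrelidin, and 7 ATF4 KO libraries lay within the wild type range. Its log2 fold change was -0.32 (standard error 0.11, edgeR adjusted p = 0.014), and -0.23 without the 14 libraries (edgeR adjusted p = 0.04). Of the 5 genes it stood nearest to the threshold. Under vehicle Ndufaf4 had -0.00 (edgeR adjusted p = 0.99), and -0.37 without the 14 (edgeR adjusted p = 0.056), where ATF4 KO lay below wild type without overlap. It was called lower under vehicle in 1 of 12 fits (edgeR adjusted p = 0.008), which also left out 2 wild type borrelidin libraries with the fewest counts. For Ndufa5 the vehicle values were -0.01 and, without the 14, -0.21 (edgeR adjusted p = 0.37).

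The other complex I genes were not called in this comparison. Ndufb6, with the exon overlap named above, averaged 150 ± 51.4 CPM in ATF4 KO and 199 ± 40.3 CPM in wild type with borrelidin (SD, n = 12 each), a log2 fold change of -0.41 (95% interval -0.81 to -0.00, edgeR adjusted p = 0.087). For Ndufaf6 the log2 fold change was -0.20 (95% interval -0.56 to 0.17), and for Stoml2 it was -0.25 (95% interval -0.50 to -0.01, edgeR adjusted p = 0.083). In the 32 libraries these values were -0.17 for Ndufb6, 0.04 for Ndufaf6 and -0.09 for Stoml2, none of them called. Slc25a51 and Coq3 were not called either. Slc25a51 averaged 169 ± 18.3 CPM in ATF4 KO and 166 ± 23.8 CPM in wild type, and Coq3 averaged 97.2 ± 26 CPM in ATF4 KO and 97.9 ± 10.3 CPM in wild type (SD, n = 12 each). Their log2 fold changes had 95% intervals of -0.14 to 0.21 and -0.31 to 0.29. In the 32 libraries Coq3 averaged 111 ± 9.01 CPM in ATF4 KO (n = 9) against 97.9 ± 10.3 CPM in wild type (SD, n = 12), a log2 fold change of 0.18 (standard error 0.06, edgeR adjusted p = 0.014).

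Within the group of wild type with borrelidin, replicates 5 and 10 held the highest value of every member, 5 genes each. They also had the fewest assigned counts of their group, 2309828 and 2047362. Of their reads 15.0% and 14.9% were not aligned, against 9.0 to 13.3% in the rest of the group. The TMM factor, by which library sizes are scaled, was 0.777 in replicate 5 and 0.922 to 0.969 in the other libraries of the group. The part of these differences in the high values was not tested. The comparison was repeated without them, a choice made after seeing the data. Tomm5 (-0.97), Cox6c (-0.55), Mrpl50 (-0.48), Ndufa5 (-0.39) and Ndufaf4 (-0.25) were again called lower, with adjusted p between 1.4e-05 and 0.049 from edgeR. With the 14 libraries also left out, Ndufaf4 lost its call (-0.16, edgeR adjusted p = 0.065), while Tomm5 (-0.67), Cox6c (-0.43), Mrpl50 (-0.34) and Ndufa5 (-0.23) kept theirs. In that fit 2 members were called higher in ATF4 KO, Coq3 (0.21, edgeR adjusted p = 0.0029) and Slc25a51 (edgeR adjusted p = 0.013). Tomm5, Cox6c, Mrpl50 and Ndufa5 were called lower in each of the 12 fits run for this comparison. Over all 46 libraries 24.1% of all tested rows were called lower. The share of rows called lower in every fit, or in the fits without replicates 5 and 10, is not given. These counts therefore say nothing particular about the members.

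**Figure D2:**
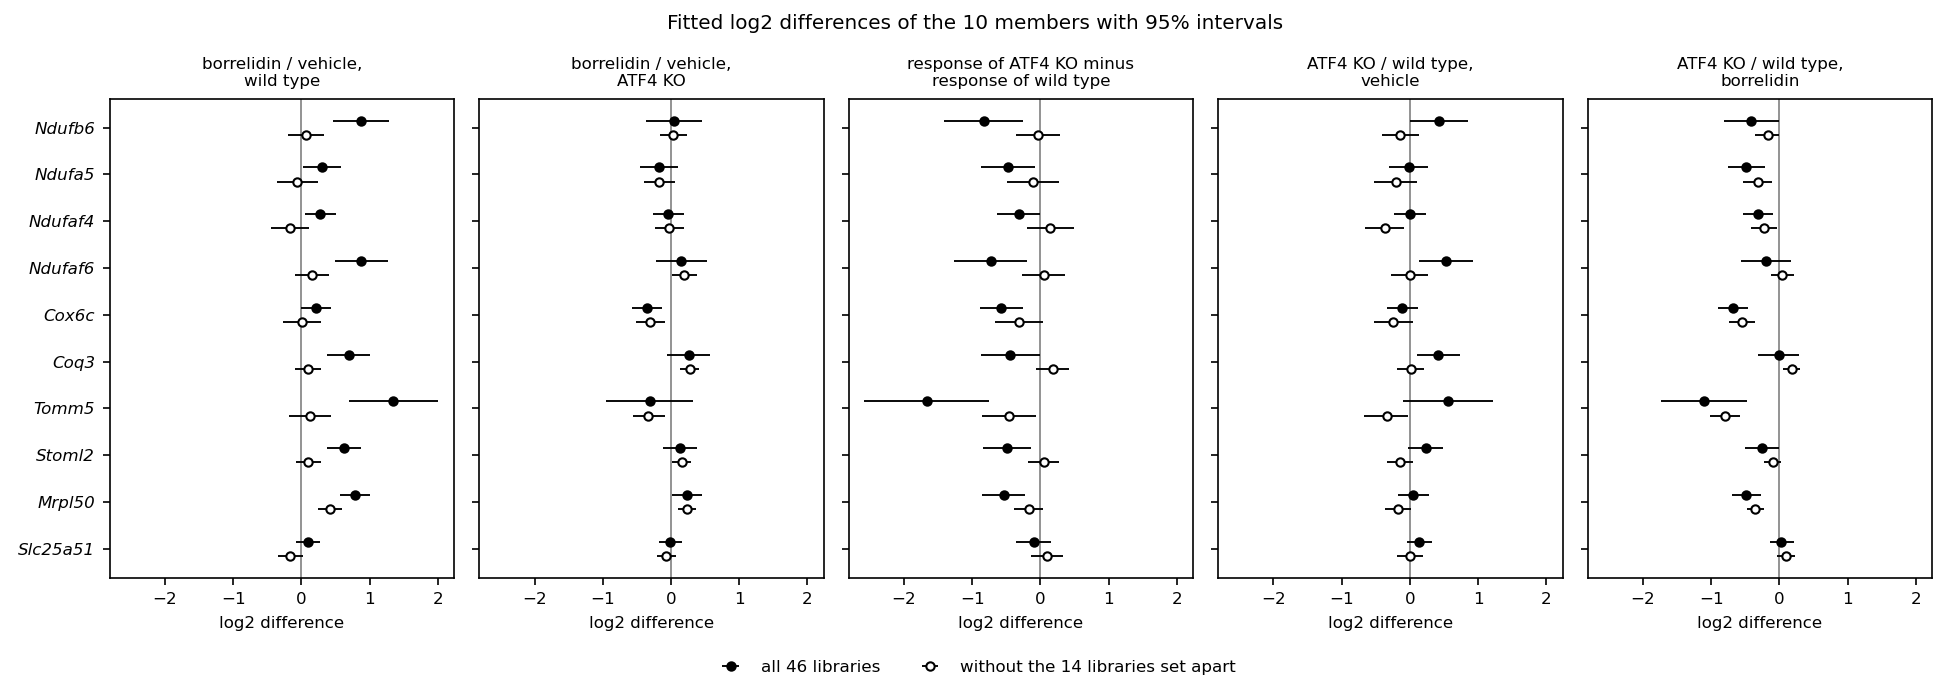
Fitted log2 differences of the 10 genes in the 5 comparisons, as points with 95% intervals, over all 46 libraries (filled) and without the 14 libraries set apart (open). Most points of the wild type response move toward 0 without these libraries, while Tomm5, Cox6c, Mrpl50, Ndufa5 and Ndufaf4 stay below 0 in the comparison of ATF4 KO with wild type under borrelidin.

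Borrelidin in wild type raised 7 of the 10 members over all 46 libraries and lowered 0, against 26.5% of tested rows called higher and 32.9% called lower. Of the genes of the segments, 43.2% were called higher and 16.4% lower. The 7 were Tomm5, Ndufaf6, Ndufb6, Mrpl50, Coq3, Stoml2 and Ndufaf4, and the median log2 fold change was 0.66 over the members, 0.18 over genes of the segments and -0.06 over all tested rows. When the 14 libraries were left out only Mrpl50 was called higher, against 9.99% of rows called higher and 8.7% called lower, and the median over the members was 0.08. In the vehicle group 8 of 11 libraries were set apart, on the side of the component away from borrelidin. The loss of calls without them is therefore not an independent check of the response.

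Mrpl50 was the exception. In wild type it had 218 to 280 CPM with borrelidin, above every one of the 11 libraries with vehicle (101 to 198 CPM), and the means were 246 ± 22.1 CPM with borrelidin (n = 12) and 143 ± 29.6 CPM with vehicle (SD, n = 11). The log2 fold change was 0.78 (standard error 0.11, edgeR adjusted p = 8.1e-08). Against the 3 vehicle libraries that were not set apart (168, 186 and 198 CPM) it was 0.42 (standard error 0.09, edgeR adjusted p = 4.8e-04), and it was called higher in all 13 fits run for this comparison.

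Tomm5 showed the opposite case. It had 260 to 497 CPM with borrelidin in wild type, against 48.5 to 92.9 CPM in the 8 vehicle libraries set apart and 281, 297 and 313 CPM in the other 3. The log2 fold change was 1.35 (standard error 0.33, edgeR adjusted p = 4.7e-04) over all libraries and 0.13 (95% interval -0.18 to 0.44, edgeR adjusted p = 0.63) without the 14. The same held for Ndufaf6, with 0.88 (edgeR adjusted p = 1.3e-04) over all libraries and 0.16 without the 14. For Ndufb6 the values were 0.87 (edgeR adjusted p = 4.0e-04) and 0.07, for Coq3 0.70 (edgeR adjusted p = 2.1e-04) and 0.10, and for Stoml2 0.62 (edgeR adjusted p = 5.3e-05) and 0.10. Ndufaf4 had 0.28 (edgeR adjusted p = 0.028) and -0.17 (edgeR adjusted p = 0.45). Neither Ndufa5 (0.30, adjusted p = 0.06), Cox6c (0.22, adjusted p = 0.076) nor Slc25a51 (0.10, adjusted p = 0.35, all from edgeR) passed the threshold, and without the 14 their values were -0.06, 0.01 and -0.17, again not called.

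In ATF4 KO, 3 libraries were set apart in each arm, and few members passed the test for a response to borrelidin. Over all 46 libraries 0 members were called higher and 1, Cox6c, was called lower, against 15% and 15.3% of tested rows. With the 14 left out, 2 were called higher and 2 lower, against 21.7% and 20.1% of rows. Coq3 then ranged from 101 to 121 CPM with borrelidin, against 80.3 to 101 CPM with vehicle, a log2 fold change of 0.28 (standard error 0.07, edgeR adjusted p = 0.0016). Mrpl50 averaged 193 ± 10.4 CPM with borrelidin (n = 9) and 163 ± 18.6 CPM with vehicle (SD, n = 8), a log2 fold change of 0.24 (edgeR adjusted p = 0.0023). Tomm5 averaged 187 ± 26.4 CPM with borrelidin (n = 9) and 235 ± 40.6 CPM with vehicle (SD, n = 8), a log2 fold change of -0.33 (edgeR adjusted p = 0.023).

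Libraries of ATF4 KO with the same replicate number deviated together in 11 of 11 pairs (r over 0.1), but in 2 of 8 pairs when the libraries set apart were left out. With the replicate number as a block in a fit of the ATF4 KO groups alone, 4 members were called: Coq3 (0.24, adjusted p = 0.0038) and Mrpl50 (0.24, adjusted p = 0.0027) higher, Cox6c (-0.37, adjusted p = 2.0e-04) and Tomm5 (-0.36, adjusted p = 0.0025, all from edgeR) lower. These are the 4 genes that were also called without the 14 libraries. The share of all tested rows called in this block fit is not given here, so the count alone says nothing particular about the members. Whether the lines differed in their response was tested separately.

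The response of ATF4 KO minus the response of wild type was negative for all 10 members over all 46 libraries, and 6 of them were called lower and 0 higher, against 16.5% and 17.1% of tested rows. Of the genes of the segments, 29.8% were called lower and 14.7% higher. The median difference was -0.51 over the members, -0.17 over genes of the segments and 0.05 over all tested rows. The values were -1.66 for Tomm5 (standard error 0.45, adjusted p = 0.0048), -0.83 for Ndufb6 (0.29, adjusted p = 0.024), -0.73 for Ndufaf6 (0.27, adjusted p = 0.03), -0.57 for Cox6c (0.16, adjusted p = 0.0046), -0.54 for Mrpl50 (0.15, adjusted p = 0.0066) and -0.49 for Stoml2 (0.18, adjusted p = 0.03, all from edgeR). Without the 14 libraries 0 members were called in either direction, against 6.28% of rows called lower and 3.62% called higher, and the median over the members was 0.01. Tomm5 then had a difference of -0.46 (95% interval -0.85 to -0.06, edgeR adjusted p = 0.14) and Cox6c of -0.31 (95% interval -0.66 to 0.04). With the library set as a block in the fit of all 46 libraries, Tomm5 alone of the members was called (-0.59, standard error 0.16, edgeR adjusted p = 0.0054). For that fit the share of all tested rows called is not given.

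Under vehicle, Ndufaf6 and Coq3 were called higher in ATF4 KO than in wild type, and neither call held without the 14 libraries. These 2 members called higher and 0 lower compare with 18.1% and 17.2% of tested rows. Ndufaf6 averaged 40.6 ± 11.1 CPM in ATF4 KO and 28.2 ± 12.3 CPM in wild type (SD, n = 11 each), a log2 fold change of 0.53 (edgeR adjusted p = 0.029), and Coq3 averaged 81 ± 19.5 CPM in ATF4 KO and 60.5 ± 21.8 CPM in wild type (SD, n = 11 each), a log2 fold change of 0.42 (edgeR adjusted p = 0.032). Without the 14 libraries no member was called, against 10.9% of rows called higher and 10.3% called lower. Ndufaf6 then averaged 46.2 CPM in both lines, and the 95% interval of its log2 fold change was -0.27 to 0.26. That of Coq3 was -0.19 to 0.21. The wild type arm then held 3 libraries. With a block for the library set, Ndufaf6 (0.06) and Coq3 (0.03) were not called. In that fit 0 members were called higher and 3 others lower in ATF4 KO: Ndufa5 (-0.32, adjusted p = 0.013), Cox6c (-0.29, adjusted p = 0.015) and Mrpl50 (-0.22, adjusted p = 0.0061, all from edgeR). The share of all tested rows called with this block is not given.

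In each of the 3 groups that held libraries set apart, all 10 members averaged lower in those libraries than in the other libraries of the same group, as did 50.1% of all tested rows in ATF4 KO with borrelidin, 49.2% in ATF4 KO with vehicle and 44.9% in wild type with vehicle. The sets were drawn from the data, so these values are a description and were not tested. The libraries set apart were lower without overlap for 9 members in ATF4 KO with borrelidin (19.8% of all tested rows), for 10 in ATF4 KO with vehicle (21.4%) and for 9 in wild type with vehicle (19.9%), and 8 members were lower without overlap in all 3 groups. Of the 292 genes of the segments 31.5% did so, and of all tested rows 12.2%. The median log2 ratio of libraries set apart to other libraries was -0.77 over the members in ATF4 KO with borrelidin, where it was -0.27 over genes of the segments and -0.00 over all tested rows. In ATF4 KO with vehicle these medians were -0.63, -0.33 and 0.01, and in wild type with vehicle -0.71, -0.27 and 0.08.

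**Figure D3:**
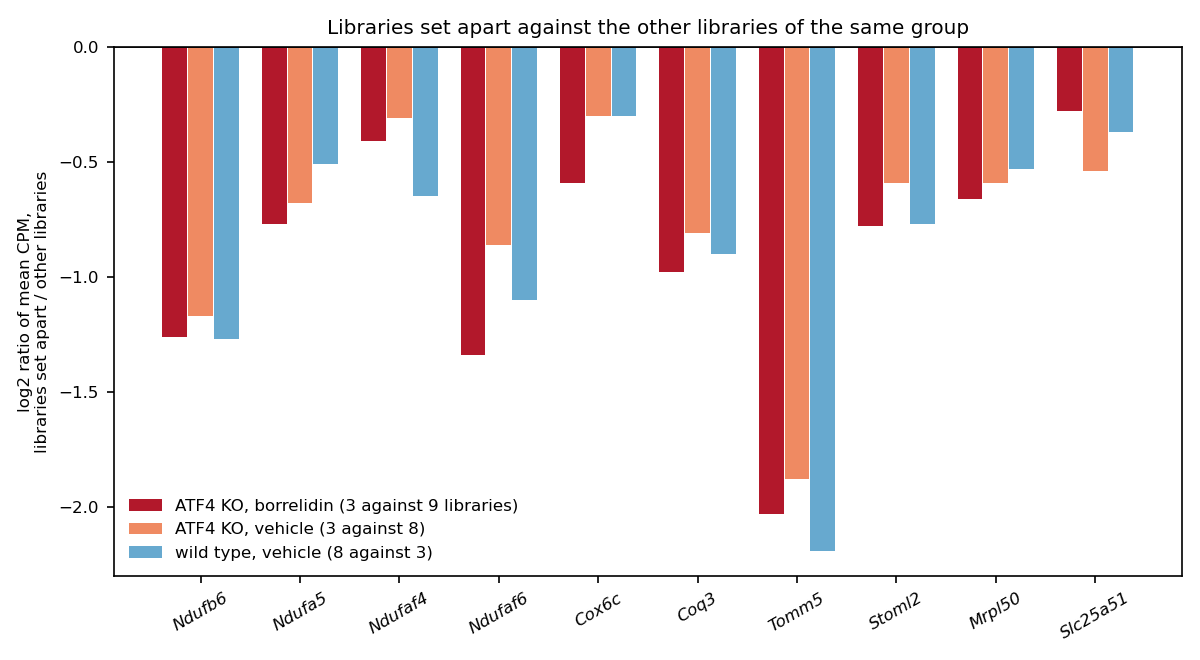
Log2 ratio of the mean CPM of the libraries set apart to that of the other libraries of the same group, as bars for the 10 genes in the 3 groups that hold both. All 30 bars lie below 0, with Tomm5 lowest in each group (-2.03, -1.88 and -2.19).

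Tomm5 differed most between the sets. It averaged 45.8 CPM in the 3 libraries set apart and 187 CPM in the other 9 of ATF4 KO with borrelidin, 63.7 CPM in 3 and 235 CPM in 8 of ATF4 KO with vehicle, and 65.1 CPM in 8 and 297 CPM in 3 of wild type with vehicle. Ndufb6 followed in 2 of the 3 groups, with log2 ratios of -1.26, -1.17 and -1.27, and Ndufaf6 with -1.34, -0.86 and -1.10. The ratios nearest to 0 were those of Slc25a51 in ATF4 KO with borrelidin (-0.28) and of Cox6c in both vehicle groups (-0.30 each). Genes with shorter annotated exons tended to have lower ratios: across the 10 members, Spearman's rho between the mean log2 ratio and the exon length was 0.84, and across the 292 genes of the segments it was 0.49. These points share the same libraries and are given as a description. The share of reads outside annotated features averaged 69.3% in the libraries set apart and 68.9% in the others. Counts assigned averaged 3030136 in the libraries set apart and 2821627 in the others, and the TMM factor averaged 1.09 in the libraries set apart and 0.965 in the others.

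Other mitochondrial genes of the segments, from a list drawn up with earlier results of these data known, numbered 15, of which 12 passed the filter on low counts. Under borrelidin 0 of the 12 were called higher in ATF4 KO than in wild type and 5 were called lower, against 25.7% and 24.1% of tested rows, with a median log2 fold change of -0.15. With the 14 left out, 1 was called higher and 5 lower, against 27.1% and 27.2%. Rida, a deaminase that clears reactive imines, averaged 34 ± 4.34 CPM in ATF4 KO and 64.9 ± 5.94 CPM in wild type under borrelidin (SD, n = 12 each), a log2 fold change of -0.93 (edgeR adjusted p = 6.1e-12), and it was lower in ATF4 KO under vehicle as well (-0.56, edgeR adjusted p = 5.1e-06). Nadk2, the mitochondrial NAD kinase, averaged 116 ± 8.98 CPM in ATF4 KO and 196 ± 29 CPM in wild type under borrelidin (SD, n = 12 each), a log2 fold change of -0.76 (edgeR adjusted p = 3.3e-11), and it too was lower in ATF4 KO under vehicle (-0.38, edgeR adjusted p = 3.2e-04). Both kept these directions and calls without the 14 libraries. The gene for the mitochondrial arginyl-tRNA synthetase, Rars2, was higher with borrelidin in both lines. It averaged 159 ± 28.7 CPM with borrelidin and 109 ± 23.8 CPM with vehicle in ATF4 KO, with a log2 fold change of 0.55 (edgeR adjusted p = 2.2e-04). In wild type it averaged 173 ± 12.3 CPM with borrelidin and 84.3 ± 21.1 CPM with vehicle (SD, n = 12 and 11 in each line), a log2 fold change of 1.04 (edgeR adjusted p = 4.7e-10), and without the 14 libraries the values were 0.51 in ATF4 KO and 0.65 in wild type.

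In ATF4 KO 2 of the 12 were called higher and 2 lower with borrelidin, against 15% and 15.3% of tested rows, and 2 and 5 without the 14 libraries, against 21.7% and 20.1%. In wild type 7 were called higher and 1 lower, against 26.5% and 32.9%, and 2 and 1 without the 14 libraries, against 9.99% and 8.7%. Rida fell with borrelidin in ATF4 KO (-0.35, edgeR adjusted p = 0.0042). Fbxl4, an F-box protein of mitochondria, was higher with borrelidin in wild type (0.54, edgeR adjusted p = 1.9e-04) and higher in ATF4 KO than in wild type under vehicle (0.56, edgeR adjusted p = 1.9e-04). Without the 14 libraries these values were 0.31 (edgeR adjusted p = 0.16) and 0.44 (edgeR adjusted p = 0.041). Dnaja1, a DNAJ co-chaperone, was lower with borrelidin in both lines when the 14 libraries were left out, at -0.42 in ATF4 KO (edgeR adjusted p = 2.0e-09) and -0.41 in wild type (edgeR adjusted p = 1.7e-06). Over all 46 libraries it was -0.33 in ATF4 KO (edgeR adjusted p = 0.015) and, with the opposite sign, 0.07 in wild type (edgeR adjusted p = 0.6). The response of ATF4 KO minus that of wild type was called lower in 8 of the 12 and higher in 0, against 16.5% and 17.1% of tested rows, led by Grhpr (-0.67, edgeR adjusted p = 0.0017), a reductase of glyoxylate, and Nadk2 (-0.38, edgeR adjusted p = 0.01). Of these calls 1 remained when the 14 were left out (6.28% of rows called lower), Grhpr (-0.49, edgeR adjusted p = 0.035), and Amacr, a racemase of branched fatty acids, was next (-0.39, edgeR adjusted p = 0.084). Under vehicle 3 were called higher and 3 lower in ATF4 KO, against 18.1% and 17.2% of rows, and 2 and 2 without the 14 libraries, against 10.9% and 10.3%. The 3 genes that did not pass the filter, Aldh1b1, Aass and Agxt2, averaged 1.14, 0.159 and 0.00698 CPM.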

How the data were processed

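RNA of 46 MEF libraries was sequenced, and the authors deposited raw read counts per gene as 1 table of the series. The submitters' processing notes name HISAT2, HTSeq, limma and mm10, and the methods name fastp, HISAT2, feature counts, limma and DESeq2, so the sources name different counting tools. For versions, strand and annotation release, the sources used here gave nothing. It holds 5 rows that name no gene, which were left out of library sizes: on average 69% of reads fell in no feature (63.8 to 70.9%), 10.8% were not aligned, 5.09% had too low quality, 3.97% did not align uniquely and 0.251% were ambiguous. Replicates are libraries that the labels call biological replicates of a line, and none was a copy of another (lowest chi-square per degree of freedom 1.89).

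Counts were tested with edgeR 4.0.16 (quasi-likelihood test, TMM, filterByExpr, 4 group means, R 4.3.3), with Benjamini-Hochberg adjustment over all 8986 tested rows. CPM values use TMM-scaled library sizes. The script was tested on simulated data. Alternatives were RLE factors, no filter, DESeq2 1.42.0, limma voom (limma 3.58.1), the replicate number or the library set as a block, only the groups compared, a model of ATF4 activity and genotype, an adjusted p under 1e-10, and the omission of library sets. Same-numbered ATF4 KO libraries deviated together (r over 0.1 in 11 of 11 pairs, 0.18 to 0.78), though in 2 of 8 pairs without the libraries set apart. Other pairs of groups did so in 2 of 11, 5 of 10 and 3 of 12. The pairing rests on the labels' numbers and this check.

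All 10 members are named. Of the other mitochondrial genes, the 2 with the smallest p in each comparison are named, and of each marker list the gene with the highest mean. Other named genes were chosen after their values were seen. The members and lists were chosen with earlier results of these data known.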

Additional observations from a re-analysis of the deposited data

Results flagged for a closer look

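For 6 members the borrelidin response differed between ATF4 KO and wild type in the test of the difference itself over all 46 libraries, each called lower. In this test 16.5% of all tested rows were called lower and 17.1% higher. Among the genes of the segments these shares were 29.8% and 14.7%. The response of ATF4 KO minus that of wild type, on the log2 scale, was -1.66 for Tomm5, -0.83 for Ndufb6, -0.73 for Ndufaf6, -0.57 for Cox6c, -0.54 for Mrpl50 and -0.49 for Stoml2. Without the 14 libraries set apart the values were -0.46 for Tomm5, -0.03 for Ndufb6, 0.05 for Ndufaf6, -0.31 for Cox6c, -0.17 for Mrpl50 and 0.05 for Stoml2, and 0 of the 6 passed the test. Of all tested rows 6.28% were then called lower and 3.62% higher.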

How the results depend on the processing

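Of 560 values over 50 results, 60 changed sign, 0 of them called under both settings. Settings that left out the 2 shallowest libraries, the TMM factors from segment genes and the block in a fit of ATF4 KO alone were chosen after seeing the data. Shares of all tested rows are given above only for all 46 libraries and without the 14. Counts from other fits therefore show how calls moved and cannot be set against a share. In the wild type response, 7 members were called, all higher, in the fit of all 46 libraries, 1 without the 14 libraries, 1 with the library set as a block and 2 without the 14 and the 2 shallowest (Mrpl50 higher and Slc25a51 lower). In the ATF4 KO response, 1 member was called in the fit of all 46 libraries, 0 with no filter, 2 with TMM factors from segment genes, 4 without the 14, 4 with the library set as a block and 6 without the 14 and the 2 shallowest. In the difference of response, 6 were called in the fit of all 46 libraries, 0 without the 14, 1 with the library set as a block, 3 without the 2 shallowest and 0 without the 14 and the 2 shallowest. Under vehicle, 2 were called, both higher, in the fit of all 46 libraries, 0 without the 14 and 0 with only the groups compared. In the same comparison 3 were called lower with the library set as a block and 2 lower without the 14 and the 2 shallowest (Tomm5 and Ndufaf4). Under borrelidin the count was 4 to 7 in every fit at the threshold of 0.05. Of these, 1 was higher in ATF4 KO without the 14, 1 with the library set as a block and 2 without the 14 and the 2 shallowest. All other calls under borrelidin were lower. At an adjusted p under 1e-10, 0 members were called in any comparison. The replicate block gave 2 calls in the ATF4 KO response, 4 when the fit held ATF4 KO alone, and 5 under vehicle. No filter moved the median of all rows by -0.34 in the wild type response and by 0.32 in the difference, and TMM factors from segment genes moved it by -0.22, 0.18 and, under vehicle, -0.12. 

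Without the 14 libraries set apart, the log2 values that changed sign were Ndufaf4 -0.17, Ndufa5 -0.06, Slc25a51 -0.17 in the wild type response, Ndufaf6 0.05, Ndufaf4 0.14, Coq3 0.18, Stoml2 0.05, Slc25a51 0.10 in the difference of response, Ndufaf6 -0.00, Ndufb6 -0.14, Tomm5 -0.34, Stoml2 -0.15, Mrpl50 -0.17 in the vehicle comparison and Ndufaf6 0.04, Coq3 0.18 in the borrelidin comparison. With a block for library set, the log2 values that changed sign were Ndufaf4 -0.03, Ndufa5 -0.16, Cox6c -0.06, Slc25a51 -0.18 in the wild type response, Coq3 0.13, Slc25a51 0.18 in the difference of response, Ndufb6 -0.10, Tomm5 -0.20, Stoml2 -0.07, Mrpl50 -0.22, Slc25a51 -0.05 in the vehicle comparison and Coq3 0.16 in the borrelidin comparison. Without the 2 shallowest wild type borrelidin libraries and the 14, the log2 values that changed sign were Ndufaf4 -0.23, Ndufb6 -0.04, Ndufa5 -0.15, Cox6c -0.12, Tomm5 -0.01, Slc25a51 -0.22 in the wild type response, Ndufaf6 0.10, Ndufaf4 0.21, Ndufb6 0.07, Coq3 0.21, Stoml2 0.13, Slc25a51 0.15 in the difference of response, Ndufaf6 -0.01, Ndufb6 -0.15, Tomm5 -0.35, Stoml2 -0.15, Mrpl50 -0.18, Slc25a51 -0.00 in the vehicle comparison and Ndufaf6 0.09, Coq3 0.21 in the borrelidin comparison. With TMM factors from segment genes, the log2 values that changed sign were Slc25a51 -0.11 in the wild type response, Slc25a51 0.08 in the difference of response, Mrpl50 -0.07 in the vehicle comparison and Coq3 0.02 in the borrelidin comparison. With no filter on low counts, the log2 values that changed sign were Slc25a51 0.01 in the ATF4 KO response and Ndufaf4 0.04, Ndufa5 0.03 in the vehicle comparison. With limma voom, the log2 values that changed sign were Slc25a51 0.01 in the ATF4 KO response and Ndufaf4 0.03 in the vehicle comparison. Without the 2 shallowest wild type borrelidin libraries, the log2 values that changed sign were Slc25a51 0.02 in the ATF4 KO response and Coq3 0.02 in the borrelidin comparison. With the replicate block, the log2 values that changed sign were Ndufaf4 0.03 in the vehicle comparison. With only the groups compared, the log2 values that changed sign were Coq3 0.01 in the borrelidin comparison. Apart from fewer libraries or rows in a fit, the cause was not tested. Each replicate was not left out in turn, since the groups held 11 or 12. The 3 wild type vehicle libraries not set apart limit the precision of every value that uses them.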
